A study of Homo sapiens with 24 samples.

Results

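The genes of the mitochondrial ribosomal proteins were followed in 2 B cell acute lymphoblastic leukaemia lines exposed to JQ1, an inhibitor of the BET bromodomain proteins. Members are the genes whose probe cluster on the array carries a single symbol of the form MRPL or MRPS with a number, and 65 of the 14232 genes tested met this rule: 42 MRPL genes, of the large subunit, and 23 MRPS genes, of the small subunit. RefSeq lists 77 protein-coding genes with such symbols. Of the other 12, 10 (MRPL3, MRPL9, MRPL45, MRPL53, MRPL57, MRPS6, MRPS12, MRPS18A, MRPS18C and MRPS28) share a cluster with another symbol and 2 (MRPL20 and MRPL36) have no cluster in the core set, and neither set was analysed here. All 65 members entered the test, since dim genes were kept.

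RNA was measured on 12 Affymetrix exon arrays: 3 arrays each of MHH-CALL4 cells in DMSO, MHH-CALL4 cells in 500 nM JQ1, MUTZ-5 cells in DMSO and MUTZ-5 cells in 500 nM JQ1. The exposure lasted 8 h in all 4 groups, and all cells grew in RPMI with fetal bovine serum, penicillin-streptomycin and L-glutamine. Each group is 1 established cell line under 1 condition, so the lines stand for 2 leukaemias and not for a population. The labels do not say whether the 3 arrays of a group came from separate cultures, so p-values measure the spread between these arrays, which may be technical.

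Mitochondrial ribosomes translate the few proteins that mitochondrial DNA encodes, all of them subunits of the respiratory chain and ATP synthase. Their RNA is made from mitochondrial DNA, while every protein of the ribosome is encoded in the nucleus, made on cytosolic ribosomes and imported. Many of these proteins descend from the bacterial ribosome and keep its numbering, and others, with higher numbers, were added during the evolution of mitochondria. Dividing cells make new mitochondrial ribosomes as they grow.

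Values are RMA log2 values, and an effect is JQ1 minus DMSO on that scale. Calls rest on limma with the Benjamini-Hochberg method across the 14232 genes and a threshold of 0.05, and every adjusted p and SE given comes from that fit. Median values of the 12 arrays lay between 8.46 and 8.57. The cells carried the markers of their label: of 10 measured B cell precursor markers, 8 in MHH-CALL4 and 9 in MUTZ-5 reached the median level of all genes, against 1 of 10 T and NK cell markers in each line (NKG7) and 2 and 1 of 8 myeloid markers (ELANE and MPO in MHH-CALL4, ELANE in MUTZ-5). On the first axis of the residuals, which held 43.9% of their variance, the outermost arrays were replicate 3 of MUTZ-5 in DMSO and replicate 3 of MHH-CALL4 in JQ1. In these bulk RNA samples a loss of cells of one kind and less RNA per cell cannot be told apart. The arrays carry no detection calls, and their number limits the precision.

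In MHH-CALL4 most mitochondrial ribosomal protein genes were called lower after JQ1. Of the 65, 40 were called lower and 0 higher, with 25 not called; over all genes 17.5% were called lower, 11% higher and 28.5% either way. Their median effect was -0.39 (quartiles -0.49 and -0.20, range -1.09 to 0.29) beside a median of 0.01 over all genes. The effect was below 0 for 59 members and above 0 for 6. In 47 of the 65 the 3 JQ1 values did not overlap the 3 DMSO values, where 43.7% of all genes were so separated. The falls were mostly small, and 2 members reached 2-fold.

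MUTZ-5 showed the same direction with smaller sizes. Of the 65 members, 28 were called lower, 1 (MRPL10) higher and 36 were not called, against 13% lower, 9.06% higher and 22% either way over all genes. The median effect was -0.24 (quartiles -0.38 and -0.10, range -0.91 to 0.39), and the all-gene median was 0.01. Values of the JQ1 and DMSO arrays did not overlap for 37 members, against 32.6% of all genes, and 0 members reached 2-fold. The count of calls depended on 1 array: without MUTZ-5 JQ1 replicate 2, 16 members were called lower and 1 higher.

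**Figure D1:**
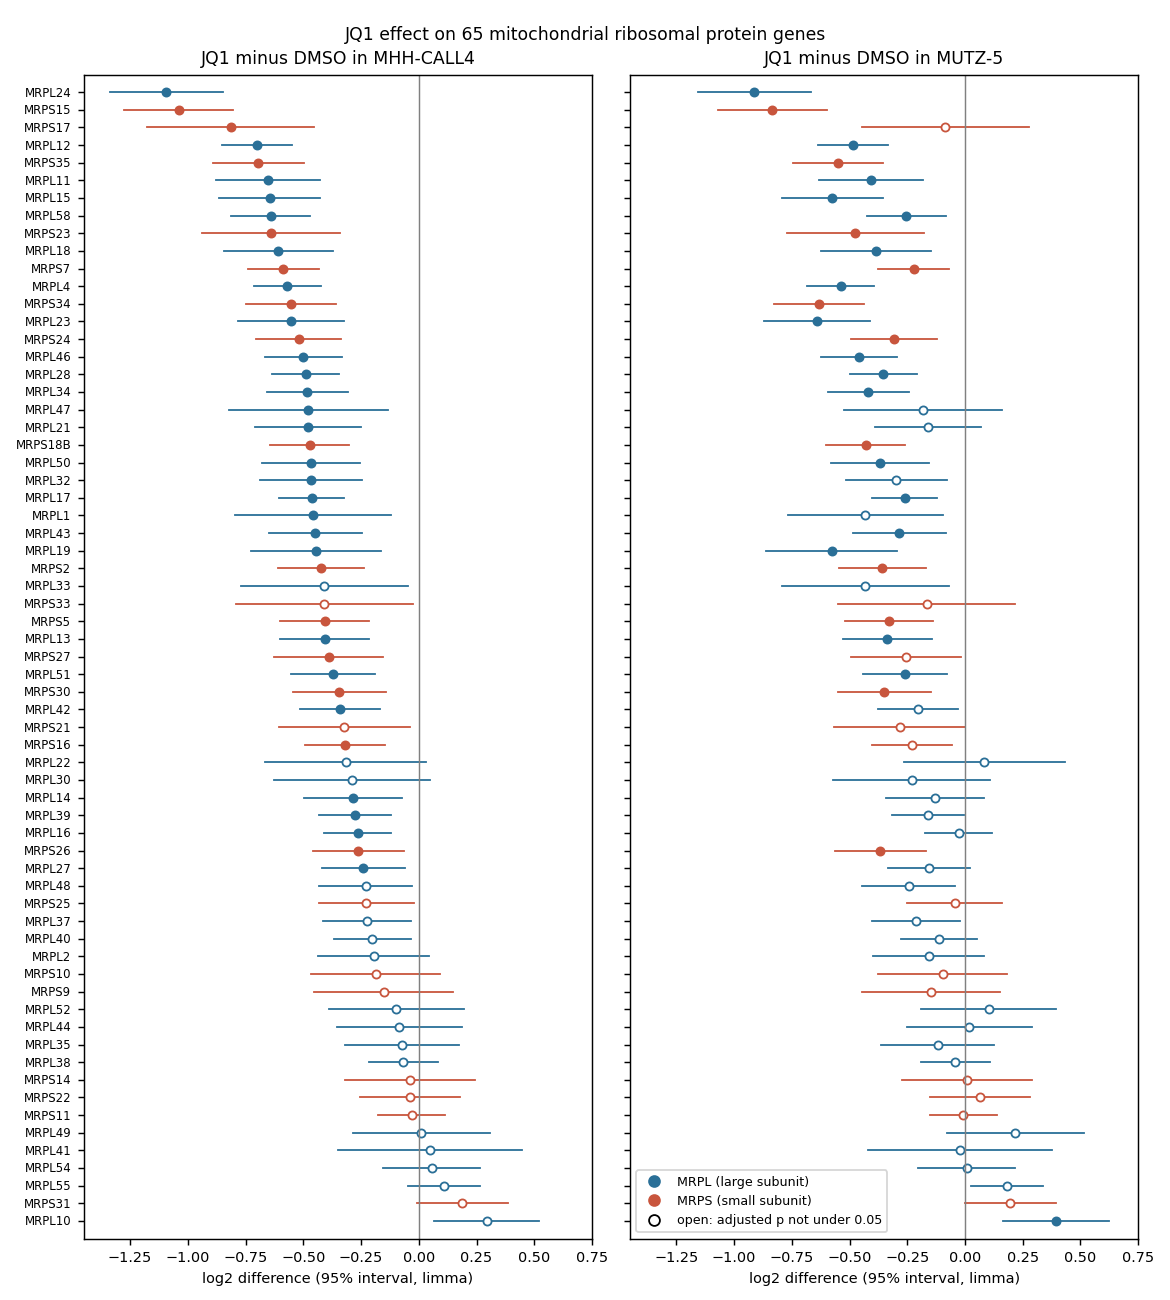
JQ1 minus DMSO (log2, horizontal axis) with its 95% interval from limma for each of the 65 genes, ordered by the effect in MHH-CALL4, with MRPL genes in blue and MRPS genes in red and open points for genes not called. Points lie left of 0 for 59 genes in MHH-CALL4 and 55 in MUTZ-5, both subunits are mixed along the order, and MRPL10 lies at the upper end in both lines.

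Array by array, the medians of the members separated by treatment. The median deviation of the 65 genes from their own 12-array means was 0.18, 0.18 and 0.13 in the MHH-CALL4 DMSO arrays and -0.14, -0.22 and -0.27 in the JQ1 arrays. In MUTZ-5 it was 0.13, 0.05 and 0.27 under DMSO and -0.01, -0.10 and -0.15 under JQ1. Every JQ1 array lay below every DMSO array of its line. The highest of the 12 was MUTZ-5 DMSO replicate 3, one of the arrays that stood out on the residual axis. Without it, 20 members were called lower and 1 higher in MUTZ-5, and the medians there were -0.16 for the large and -0.21 for the small subunit.

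**Figure D2:**
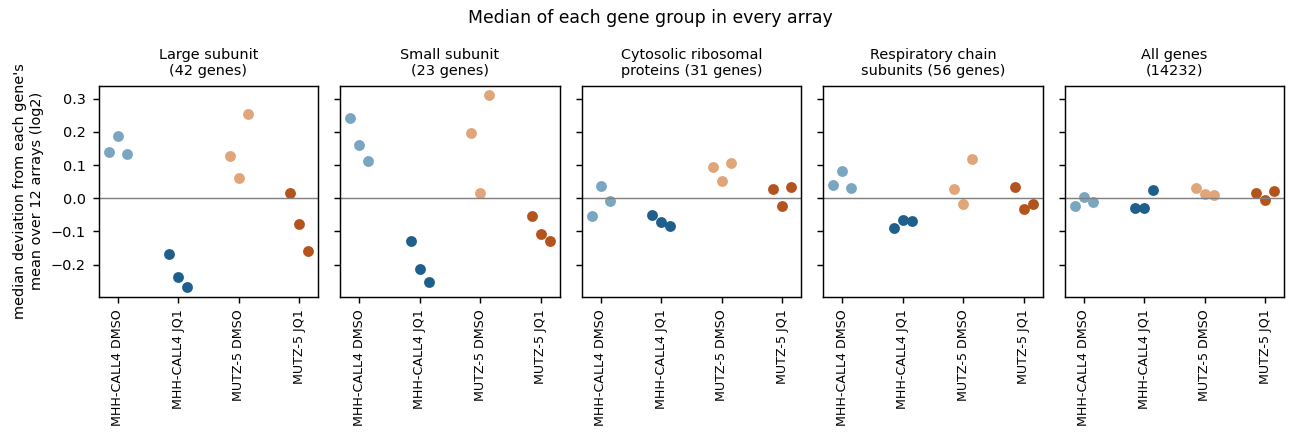
Median deviation (log2, vertical axis) of 5 gene groups from each gene's mean over 12 arrays, 1 point per array, with DMSO and JQ1 arrays of each line side by side. For both subunits the JQ1 points lie below the DMSO points of the same line, while the all-gene medians lie between -0.03 and 0.03.

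The medians of the large and small subunits lay close together. Among the 42 MRPL genes, 26 were called lower in MHH-CALL4 with a median of -0.39, and among the 23 MRPS genes 14 were called lower with a median of -0.39. In MUTZ-5, 17 MRPL genes were lower and 1 higher (median -0.24), and 11 MRPS genes were lower and 0 higher (median -0.26). Over all genes 17.5% were called lower in MHH-CALL4, and 13% lower and 9.06% higher in MUTZ-5. MRPS30 is named for the small subunit but sits in the large subunit in structures of the ribosome; moved there, the medians were -0.37 for the large and -0.40 for the small subunit in MHH-CALL4, and -0.24 for both in MUTZ-5.

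Genes with a bacterial number, up to L36 and S21, gave a lower median than those with a higher number in the large subunit. In MHH-CALL4, 18 of 24 MRPL genes with a bacterial number were called lower (median -0.46), against 8 of 18 with a higher number (median -0.23). In MUTZ-5 these were 12 lower and 1 higher of 24 (median -0.34) and 5 lower of 18 (median -0.17). In the small subunit the order was the other way: 7 of 12 with a bacterial number (median -0.37) and 7 of 11 with a higher number (median -0.39) were lower in MHH-CALL4, and 5 (median -0.23) and 6 (median -0.31) in MUTZ-5. These medians are descriptions and the contrast between the classes was not tested. Shares over all genes were 17.5% lower in MHH-CALL4, and 13% lower and 9.06% higher in MUTZ-5.

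The largest falls of the large subunit began with MRPL24, a protein next to the exit of the polypeptide tunnel. Its values in MHH-CALL4 were 9.95, 9.91 and 9.89 under DMSO and 8.93, 8.86 and 8.70 under JQ1, and in MUTZ-5 9.92, 9.72 and 10.22 under DMSO and 9.18, 8.94 and 8.99 under JQ1. No JQ1 array reached a DMSO array in either line. The falls were 2.13-fold in MHH-CALL4 (log2 -1.09, SE 0.11, adjusted p = 1.01e-05 in limma) and 1.88-fold in MUTZ-5 (log2 -0.91, SE 0.11, adjusted p = 6.5e-05 in limma). Summarised over the extended probe set list of the same arrays, MRPL24 still fell, by 0.65 and 0.53 on the log2 scale.

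Proteins of the stalk, where translation factors dock, split in direction. MRPL12 is the stalk protein itself and is also reported to bind the mitochondrial RNA polymerase. In MHH-CALL4 its values were 10.01, 10.10 and 10.12 under DMSO and 9.31, 9.35 and 9.47 under JQ1, and in MUTZ-5 9.95, 9.93 and 9.91 under DMSO and 9.46, 9.38 and 9.50 under JQ1, with no overlap. Its effect was -0.70 in MHH-CALL4 (SE 0.07, adjusted p = 7.3e-06 in limma) and -0.48 in MUTZ-5 (SE 0.07, adjusted p = 0.000217). MRPL11, at the base of the stalk, changed by -0.65 in MHH-CALL4 (SE 0.10, adjusted p = 0.000375) and -0.41 in MUTZ-5 (SE 0.10, adjusted p = 0.0117), again with no overlap in either line.

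MRPL10, which anchors MRPL12 to the ribosome, went the other way. Its values in MUTZ-5 were 9.44, 9.23 and 9.44 under DMSO and 9.75, 9.67 and 9.86 under JQ1. Every JQ1 array was above every DMSO array, and the rise of 0.39 (SE 0.11, adjusted p = 0.0159 in limma) was the only called rise among the 65 genes in the fit reported here. It was not called without MUTZ-5 DMSO replicate 2, without MUTZ-5 JQ1 replicate 3 or with the extended summary. In MHH-CALL4 the values were 9.50, 9.54 and 9.27 under DMSO and 9.88, 9.54 and 9.77 under JQ1, which overlap at 1 array, and the effect of 0.29 was not called (95% interval 0.07 to 0.52, adjusted p = 0.0536 in limma), though 6 of 20 alternatives called it.

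MRPL4 and MRPL23, which also lie around the tunnel, were called lower in both lines, and MRPL22, which lines it too, in neither. MRPL4 had 10.29, 10.38 and 10.35 under DMSO and 9.71, 9.80 and 9.80 under JQ1 in MHH-CALL4, and 10.40, 10.29 and 10.37 against 9.80, 9.76 and 9.87 in MUTZ-5. The JQ1 values were lower throughout, by 0.57 (SE 0.07, adjusted p = 3.3e-05) and 0.54 (SE 0.07, adjusted p = 7.1e-05) in limma. MRPL23 fell by 0.55 in MHH-CALL4 and by 0.64 in MUTZ-5, without overlap. The effects of MRPL22 were -0.32 (95% interval -0.67 to 0.03) and 0.08 (-0.26 to 0.43), with overlapping values in both lines.

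Among large subunit proteins that bind ribosomal RNA in bacterial fashion, MRPL15 changed by -0.65 in MHH-CALL4 (SE 0.10) and -0.57 in MUTZ-5 (SE 0.10), both called and without overlap. MRPL19 had 9.49, 9.26 and 9.25 under DMSO and 9.07, 8.86 and 8.74 under JQ1 in MHH-CALL4, and 9.35, 9.48 and 9.72 against 9.09, 9.05 and 8.68 in MUTZ-5. Its groups did not overlap in either line, and the effects were -0.45 (SE 0.13, adjusted p = 0.0212) and -0.58 (SE 0.13, adjusted p = 0.00564) in limma. The MHH-CALL4 call of MRPL19 was lost without MHH-CALL4 DMSO replicate 1, JQ1 replicate 2 or JQ1 replicate 3.

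MRPL58 is a peptidyl-tRNA hydrolase that frees stalled ribosomes and became a fixed part of the large subunit. It had 10.19, 10.10 and 10.15 under DMSO and 9.59, 9.47 and 9.45 under JQ1 in MHH-CALL4. In MUTZ-5 it started lower, at 9.73, 9.68 and 9.88, and ended at 9.56, 9.41 and 9.56. Under JQ1 the 2 lines met, with means of 9.50 and 9.51. The fall was 0.64 in MHH-CALL4 (SE 0.08, adjusted p = 4.2e-05 in limma) and 0.25 in MUTZ-5 (SE 0.08, adjusted p = 0.0332). The MUTZ-5 call was lost in 8 of 20 alternatives, among them those without MUTZ-5 DMSO replicate 1 or 3, MUTZ-5 JQ1 replicate 1 or 2, or MHH-CALL4 DMSO replicate 3.

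In the small subunit MRPS15, an RNA-binding protein of bacterial type, fell most. Its values in MHH-CALL4 were 11.33, 11.25 and 11.30 under DMSO and 10.50, 10.21 and 10.05 under JQ1, and in MUTZ-5 10.98, 10.90 and 11.20 against 10.26, 10.19 and 10.12. The groups lay far apart in both lines, by 1.04 (2.05-fold lower, SE 0.11, adjusted p = 1.09e-05 in limma) and 0.83 (1.78-fold lower, SE 0.11, adjusted p = 9.6e-05).

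Of the 11 small subunit genes with a higher number, 7 were called lower in MHH-CALL4 and 6 in MUTZ-5, against 17.5% and 13% of all genes. MRPS22, MRPS25, MRPS31 and MRPS33 were called in neither line, and MRPS31 lay above 0 in both, at 0.19 and 0.20. MRPS34 had 10.47, 10.45 and 10.46 under DMSO and 9.81, 9.90 and 10.02 under JQ1 in MHH-CALL4, and 10.32, 10.23 and 10.59 against 9.76, 9.75 and 9.74 in MUTZ-5. No values overlapped, and the effects were -0.55 (SE 0.09, adjusted p = 0.000454) and -0.63 (SE 0.09, adjusted p = 0.000195) in limma. MRPS35 changed by -0.69 and -0.55 and MRPS26 by -0.26 and -0.37. For MRPS26 the MHH-CALL4 arrays overlapped, at 9.72, 9.82 and 9.67 under DMSO against 9.36, 9.38 and 9.68, and that call held in 6 of 20 alternatives. MRPS18B, 1 of 3 mitochondrial versions of a bacterial protein, changed by -0.47 and -0.43, and MRPS30 by -0.35 in each line, all called. The MRPS30 calls were lost without MHH-CALL4 DMSO replicate 1 or JQ1 replicate 3, and without MUTZ-5 JQ1 replicate 3.

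MRPS17, a bacterial-type protein that binds ribosomal RNA, had the largest difference of effects between the lines, which was not called. Its values were 9.21, 9.06 and 8.67 under DMSO and 8.29, 8.12 and 8.09 under JQ1 in MHH-CALL4, without overlap, and the fall of 0.82 (SE 0.17, adjusted p = 0.00246 in limma) was called. In MUTZ-5 the values were 9.19, 8.52 and 8.72 under DMSO and 8.58, 8.92 and 8.66 under JQ1, which overlap, and the effect was -0.08 (95% interval -0.45 to 0.28). With the extended summary the MHH-CALL4 effect shrank to -0.13 and lost its call.

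The members with the smallest mean effect over both lines were MRPL41, MRPL52 and MRPS22, all with overlapping groups. MRPL41, a mitochondria-specific protein that is also reported to promote apoptosis, had effects of 0.05 (95% interval -0.35 to 0.45) and -0.02 (-0.42 to 0.38). For MRPL52 they were -0.10 (-0.39 to 0.19) and 0.10 (-0.19 to 0.39). MRPS22, whose loss impairs small subunit assembly, gave -0.04 (-0.25 to 0.18) and 0.07 (-0.15 to 0.28). In MUTZ-5 the interval of MRPL41 reaches past the members' median of -0.24, so a fall of that size is not excluded there. In MHH-CALL4 the interval stops short of the median of -0.39. The SE of MRPL41 was 0.18 in both lines, so the precision was the same.

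**Figure D3:**
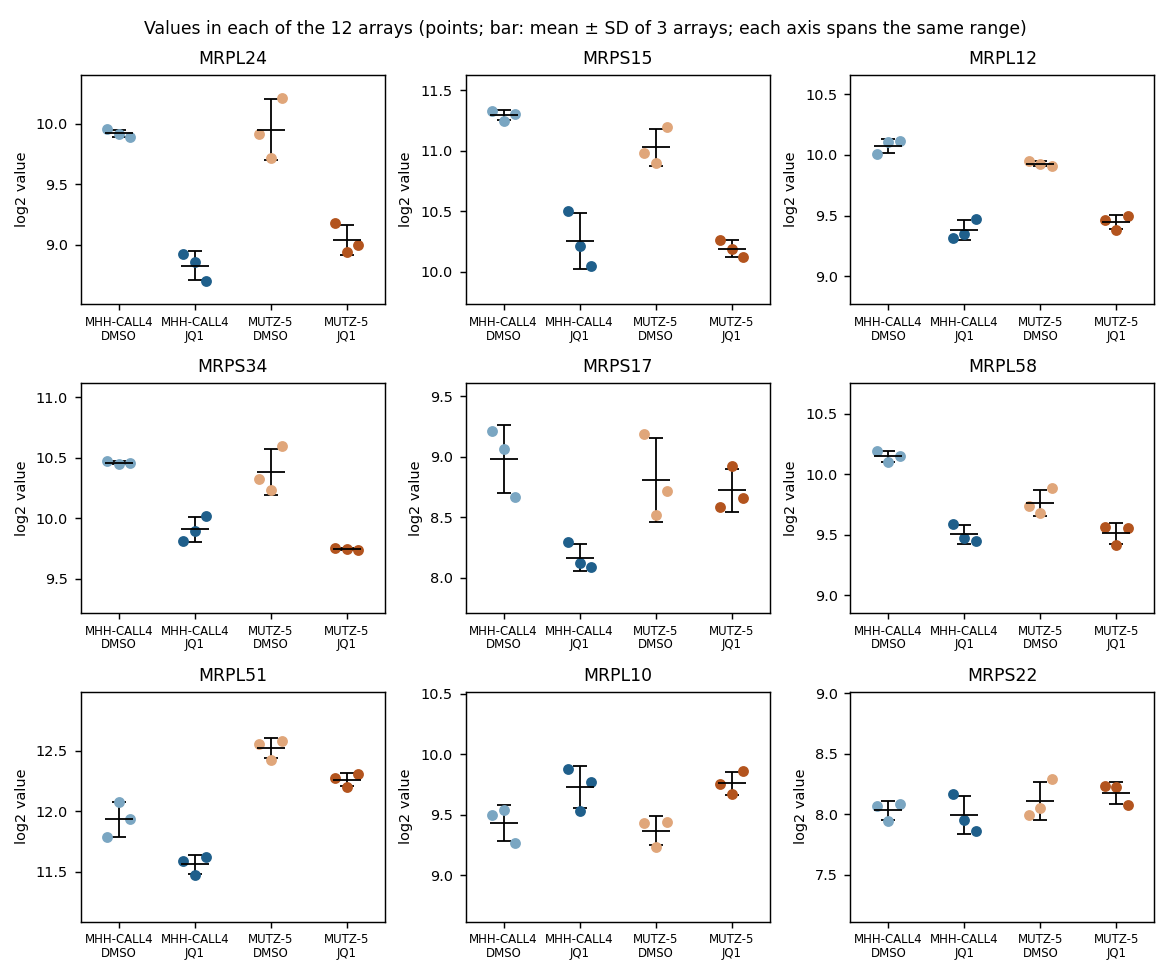
RMA log2 values (vertical axis, same span in every panel) of 9 genes in the 12 arrays, 3 points per group with the mean and SD as bars. JQ1 points lie below the DMSO points of both lines for MRPL24, MRPS15, MRPL12, MRPS34, MRPL58 and MRPL51, only in MHH-CALL4 for MRPS17, above them in MUTZ-5 for MRPL10, and among them for MRPS22.

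Promoters were taken from RefSeq (GRCh38.p14), where 58 of the 65 members had an entry of 250 bases before and 50 after the gene start. The following motifs were searched on both strands: the E-box CACGTG, bound by MYC among others, the palindrome of NRF1, a factor known for nuclear genes of mitochondria, whose letters are the capitals in the MRPL17 promoter, and CCGGAAGT, a core of the ETS family. The 250 bases before the start are shown 5′ to 3′ on the strand of the gene, for the 2 members with the largest falls, neither of which holds any of the motifs, and for 1 member with each motif. Capitals mark the motif. MRPL24 is at chr1:156741089-156741338, minus strand; MRPS15 at chr1:36464385-36464634, minus strand; MRPL22 at chr5:154940823-154941072, plus strand; MRPL17 at chr11:6683341-6683590, minus strand; and MRPL38 at chr17:75904885-75905134, minus strand.
MRPL24: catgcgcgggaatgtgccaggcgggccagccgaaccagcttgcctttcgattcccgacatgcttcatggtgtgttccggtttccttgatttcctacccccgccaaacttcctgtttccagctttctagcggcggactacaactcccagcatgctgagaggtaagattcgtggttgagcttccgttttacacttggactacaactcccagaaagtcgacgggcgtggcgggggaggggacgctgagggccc
MRPS15: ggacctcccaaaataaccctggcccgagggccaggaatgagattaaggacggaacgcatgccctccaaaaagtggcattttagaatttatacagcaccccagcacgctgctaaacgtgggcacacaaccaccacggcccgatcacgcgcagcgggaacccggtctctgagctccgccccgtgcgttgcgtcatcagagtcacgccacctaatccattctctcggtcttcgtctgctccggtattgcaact
MRPL22: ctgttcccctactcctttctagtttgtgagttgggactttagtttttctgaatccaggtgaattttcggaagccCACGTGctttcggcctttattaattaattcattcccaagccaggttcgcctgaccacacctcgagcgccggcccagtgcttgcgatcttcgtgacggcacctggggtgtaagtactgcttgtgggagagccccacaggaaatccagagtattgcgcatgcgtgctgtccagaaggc
MRPL17: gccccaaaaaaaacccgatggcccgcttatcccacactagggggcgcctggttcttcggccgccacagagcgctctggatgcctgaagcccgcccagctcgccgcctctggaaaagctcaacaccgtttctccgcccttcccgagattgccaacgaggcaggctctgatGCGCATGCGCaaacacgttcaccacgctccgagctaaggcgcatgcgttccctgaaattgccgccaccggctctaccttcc
MRPL38: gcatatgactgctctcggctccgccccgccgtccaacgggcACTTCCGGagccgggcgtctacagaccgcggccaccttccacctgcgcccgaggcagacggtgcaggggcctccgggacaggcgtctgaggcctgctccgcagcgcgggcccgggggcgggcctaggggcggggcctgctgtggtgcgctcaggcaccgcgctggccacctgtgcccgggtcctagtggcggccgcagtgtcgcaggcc

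The E-box was found in 3 of 58 member promoters (5.17%), those of MRPL22, where it starts 176 bases before the gene start, MRPL37 and MRPL49, against 8.99% of the promoters of genes tested and 7.43% of all promoters in the table. None of these 3 was called in either line, while of the 55 members without the E-box 36 were called lower in MHH-CALL4 and 25 in MUTZ-5. The groups overlapped in both lines for MRPL22 and MRPL49, but in neither line for MRPL37, which changed by -0.22 and -0.21. Among genes tested, the median effect with the E-box was -0.05 against 0.01 without it in MHH-CALL4. In MUTZ-5 these medians were -0.02 and 0.01. The split of the members was not tested. MRPL17 held the NRF1 motif, 81 bases before its start, as the 1 member of 58 (1.72%) beside 1.77% of genes tested and 1.36% of all promoters. It fell by 0.46 and 0.26, both called. The MUTZ-5 call was lost without MUTZ-5 JQ1 replicate 2 and in the fit on the MUTZ-5 arrays only. The ETS motif was in 8 of 58 (13.8%; MRPL16, MRPL27, MRPL38, MRPL47, MRPL51, MRPL52, MRPS22 and MRPS34), against 6.42% of genes tested and 4.44% of all promoters. Of these 8, 5 were called lower in MHH-CALL4 and 2 in MUTZ-5, and of the 50 members without the motif 31 and 23. MRPL38, where the motif starts 209 bases before the gene start, had effects of -0.07 and -0.04 that were not called. A match is a stretch of letters and not a measured binding site.

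The 2 lines were then set against each other. Of the 40 members called lower in MHH-CALL4, 28 (70.0%) were also called lower in MUTZ-5, and these were all 28 of the MUTZ-5 falls. Over all genes these shares were 60.4% and 81.5%. No member was called in opposite directions, and 24 were called lower or higher in neither line. Over all 14232 genes these counts were 21 and 9382. Across the 65 genes the effects of the lines, which share no array, correlated with r = 0.85 and rho = 0.82, and over all genes with r = 0.77 and rho = 0.69; genes of 1 array are not independent. The effect was lower in MHH-CALL4 for 55 of the 65 members, and for 7744 of all 14232 genes.

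**Figure D4:**
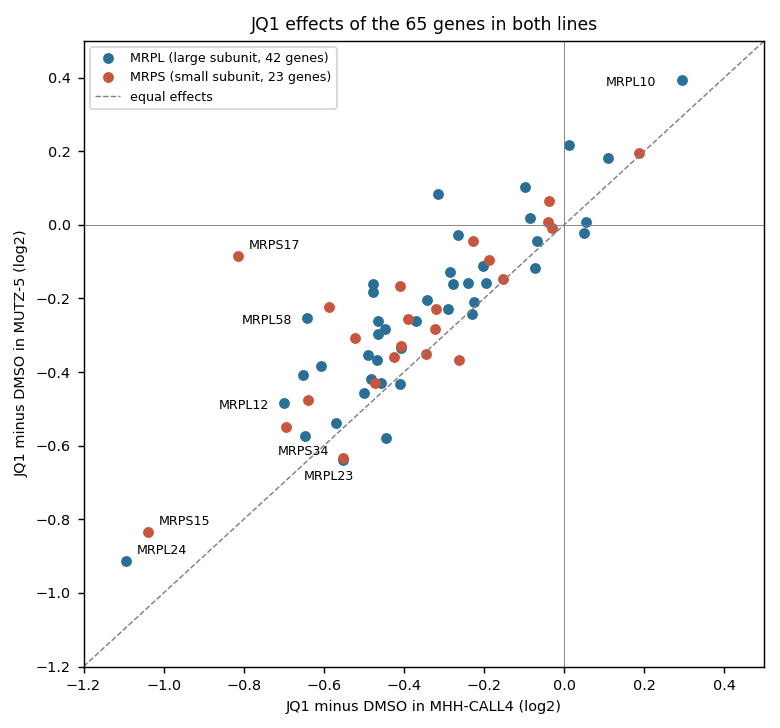
JQ1 minus DMSO (log2) in MHH-CALL4 on the horizontal and in MUTZ-5 on the vertical axis, 1 point per gene, with the dashed line of equal effects. Of the 65 points, 55 lie above the line, and MRPS17 and MRPL58 are among those farthest from it.

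The difference of effects itself, MUTZ-5 minus MHH-CALL4, was called for 0 of the 65 members in limma at the adjusted threshold, where 1.53% of all genes were called, 0.949% higher and 0.583% lower. At an unadjusted p under 0.05 in limma there were 6 of the 65 members, all higher, and 1490 of all 14232 genes, 881 of them higher. The median difference of the members was 0.09 beside 0.02 over all genes. With a trended and robust variance prior 1 was called (MRPS7), and without MUTZ-5 DMSO replicate 3 there were 2 (MRPL21 and MRPL58). The largest differences were those of MRPS17 (0.73, 95% interval 0.22 to 1.24, adjusted p = 0.204) and MRPL22 (0.40, -0.09 to 0.89, adjusted p = 0.612). For MRPS17 the extended summary gave -0.06. MRPL58 (0.39, 0.15 to 0.63, adjusted p = 0.131) and MRPS7, a ribosomal RNA-binding protein of the small subunit (0.36, 0.15 to 0.58, adjusted p = 0.116), were singled out after their values were seen. A difference that misses the threshold does not show that the lines respond alike, since intervals of this width include differences as large as the median effect.

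Without JQ1 the lines differed at few of these genes. MUTZ-5 was called higher than MHH-CALL4 under DMSO for 3 members and lower for 3, against 11.9% and 11.5% of all genes, and the groups did not overlap for 17 of 65, against 36.2%. The split moved with the scaling: 3 higher and 5 lower after median centring, and 8 higher and 4 lower after cyclic loess. Without MUTZ-5 DMSO replicate 3 it was 1 higher and 7 lower.

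MRPL51 had the largest called rise between lines, with MHH-CALL4 at 11.79, 12.07 and 11.93 and MUTZ-5 at 12.55, 12.43 and 12.58. The values were well apart, by 0.59 (SE 0.08, adjusted p = 0.000138 in limma), and JQ1 lowered it in both lines, by 0.37 and 0.26, the second call holding in 8 of 20 alternatives. MRPL33, a small protein of bacterial type, was lower in MUTZ-5, at 6.75, 6.60 and 7.01 against 7.56, 7.35 and 7.32 (difference -0.62, SE 0.17, adjusted p = 0.015 in limma). This was not called after removal of DMSO replicate 1 of MHH-CALL4 or DMSO replicate 2 of MUTZ-5. MRPL33 lies below the median level of all genes, 8.52. Its MUTZ-5 values are near the array means of the T and NK cell markers there, 6.52 to 6.84 under DMSO. MRPL58 (-0.38) and MRPL16 (-0.28) were also lower in MUTZ-5, and MRPL48 (0.34) and MRPS26 (0.33) higher. The calls of these last 2 were lost without MHH-CALL4 DMSO replicate 3 or MUTZ-5 DMSO replicate 3, and also without MHH-CALL4 DMSO replicate 2 for MRPL48 and replicate 1 for MRPS26.

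The neighbouring machinery of mitochondrial gene expression was read from lists, whose counts stand beside 17.5% lower and 11% higher over all genes in MHH-CALL4 and 13% lower and 9.06% higher in MUTZ-5. Of 17 assembly factors of the mitochondrial ribosome, 8 were lower and 0 higher in MHH-CALL4 (median -0.19) and 7 lower and 1 higher, METTL17, in MUTZ-5 (median -0.18). MRM1, which methylates the large ribosomal RNA, fell most: its values were 9.71, 9.68 and 9.60 under DMSO against 8.36, 8.46 and 8.75 in MHH-CALL4, and 9.79, 9.59 and 9.79 against 8.63, 8.70 and 8.67 in MUTZ-5. Its effects were -1.14 (SE 0.10, adjusted p = 1.9e-06) and -1.06 (SE 0.10, adjusted p = 5.5e-06) in limma. FASTKD2 and DDX28, factors of large subunit assembly, changed by -0.74 and -0.56 and by -0.50 and -0.63. NSUN4, an RNA methyltransferase of both subunits' assembly, changed by -0.50 and -0.40.

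Against the same shares over all genes (17.5% lower and 11% higher in MHH-CALL4, 13% and 9.06% in MUTZ-5), 6 of 12 translation factors were lower and 1 higher in MHH-CALL4 (median -0.35) and 4 lower and 1 higher in MUTZ-5 (median -0.35). The recycling factor MRRF changed by -0.55 and -0.39 and the elongation factor TSFM by -0.51 and -0.39, all called. TACO1, an activator of cytochrome oxidase subunit translation, fell by 0.64 in MHH-CALL4 and by 0.37 in MUTZ-5, the second call lost without MUTZ-5 DMSO replicate 3 or JQ1 replicate 2. The release factor MTRF1 fell by 0.43 in MUTZ-5, a call kept in 10 of 20 alternatives, and gave -0.36 in MHH-CALL4, not called (adjusted p = 0.0752 in limma). The related factor MTRF1L was the called rise in MHH-CALL4, by 1.05, which was 0.13 and not called with the extended summary, and gave 0.46 in MUTZ-5, not called. Among 13 genes of mitochondrial transcription and RNA, 8 were lower in MHH-CALL4 (median -0.38) and 7 in MUTZ-5 (median -0.21), with 0 higher. PNPT1, of the RNA degradosome, fell by 1.26 and 0.91, and TFB2M, a transcription factor of mitochondrial DNA, by 0.90 and 0.75. SUPV3L1, the helicase partner of PNPT1, fell by 0.65 and 0.62, and PRORP, a nuclease that processes mitochondrial tRNAs, by 0.68 and 0.34. The polymerase POLRMT was not called, at 0.01 and -0.18.

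Subunits of the ribosome with other symbols were measured for 3 genes. CHCHD1 gave -0.46 (adjusted p = 0.048) and -0.45 (adjusted p = 0.0655) and GADD45GIP1 -0.31 (adjusted p = 0.0489) and -0.15 (adjusted p = 0.445) in limma, and the MHH-CALL4 calls held in 10 and 9 of 20 alternatives. DAP3 was not called, at 0.04 and 0.07.

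Cytosolic ribosomal proteins and the respiratory chain had medians nearer to 0. Both lists hold only genes with a single-symbol cluster in the core set, so genes without one are left out. Of 31 measured cytosolic ribosomal protein genes, 7 were lower and 3 higher in MHH-CALL4 (median -0.05) and 4 lower and 0 higher in MUTZ-5 (median -0.05). Lower calls made up 22.6% of this list in MHH-CALL4 and 12.9% in MUTZ-5, near the 17.5% and 13% over all genes. Higher calls over all genes were 11% in MHH-CALL4 and 9.06% in MUTZ-5. RPS14 was the largest fall, of 0.98 and 0.71, with sizes of 0.47 and 0.36 in the extended summary. RPL35 was called higher in MHH-CALL4, by 1.09, but gave -0.15 with the extended summary, and in MUTZ-5 it was not called, at -0.03. The fall of RPS27L in MHH-CALL4, -0.82, was -0.08 with the extended summary, and in MUTZ-5 it gave -0.50, not called. The RPS27L call was also lost without DMSO replicate 2 or JQ1 replicate 2 or 3 of MHH-CALL4. RPL9 fell by 0.45 and 0.40 and RPL37A by 0.44 and 0.54, with the MHH-CALL4 call of RPL37A lost without DMSO replicate 1 or JQ1 replicate 2 or 3 of that line. Of 56 measured nuclear subunits of the respiratory chain and ATP synthase, 12 were lower and 1 higher in MHH-CALL4 (median -0.13) and 7 lower and 1 higher in MUTZ-5 (median -0.06). Lower calls were 21.4% of these 56 in MHH-CALL4 and 12.5% in MUTZ-5, again near the shares over all genes. NDUFB10, of complex I, changed by -0.76 and -0.52, and ATP5MC1, of the ATP synthase, by -0.66 and -0.57. NDUFA9, also of complex I, fell by 0.59 and 0.32, the second call lost without MUTZ-5 JQ1 replicate 2. CYC1, of complex III, fell by 0.29 and 0.34, calls kept in 7 and 13 of 20 alternatives. No test between these lists and the mitochondrial ribosomal proteins was made.

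**Figure D5:**
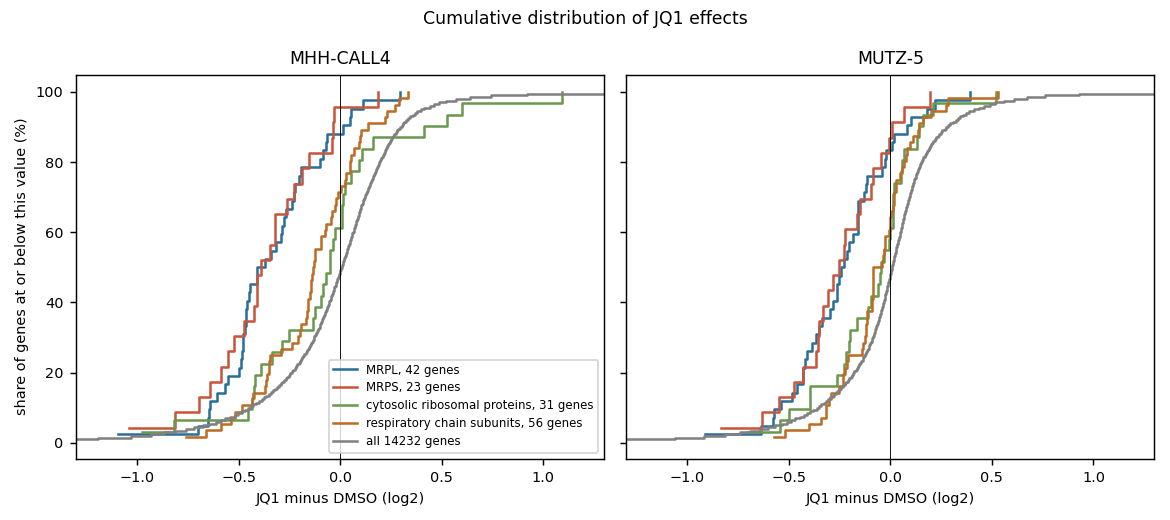
Cumulative share of genes (vertical axis, %) at or below each JQ1 effect (horizontal axis, log2, axis ends inside the range of all genes) for MRPL, MRPS, cytosolic ribosomal protein and respiratory chain genes and for all genes. Both curves of the mitochondrial ribosome lie left of the others over most of the range in each line. Their medians are -0.39 for MHH-CALL4, and -0.24 and -0.26 for MUTZ-5, against -0.05 for the 31 measured cytosolic ribosomal protein genes.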

How the data were processed

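The authors deposited RMA log2 values made in Affymetrix Expression Console, per the submitters' processing notes, with each array summarised over the core and over the extended probe set list; versions, genome build and the arrays normalized together are not given in the sources used here. RMA includes quantile normalization, so a change common to all genes cannot be seen. The 2 forms of an array count as 1 replicate, and the core form was used. Of 22011 core clusters, 14432 carry 1 symbol in the array annotation, 2408 several and 5171 none. The highest cluster by mean was kept for 197 genes with more than 1, which left 14232 genes.

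limma 3.58.1 in R 4.3.3 (lmFit, eBayes, 1 mean per group, 12 arrays, two-sided) gave the JQ1 effect per line, their difference and the difference between lines under DMSO. The code was also run on simulated data, which checks the code and not the calls reported here. Tables and figures used Python 3.11.15, pandas 2.3.3 and matplotlib 3.10.9.

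The members, the 9 gene lists and the tests were chosen with earlier results of these data known. Named members are, per line, the 8 largest called falls and 4 largest called rises without overlap, members called in opposite directions, the 2 largest differences of effects where none was called, the 4 largest called differences each way under DMSO, the 3 smallest mean effects, and MRPL12, MRPS18A, MRPS18B, MRPS18C, MRPS30 and MRPS36 where measured; from lists, the 3 largest called changes per line. METTL17, POLRMT, MRPS7, MRPS25, MRPS31, MRPS33, MRPL17, MRPL21, MRPL27, MRPL37, MRPL38, MRPL47 and MRPL49 were added after their values or motifs were seen. Alternatives were the extended form, median centring, cyclic loess, a level filter, arrays of 1 line, the replicate number as a block, another variance prior, mean clusters and each array left out.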

Additional observations from a re-analysis of the deposited data

How the results depend on the processing

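Directions of the 4 medians held in the alternatives run. The JQ1 count of MHH-CALL4 stayed near its value in 20 of 20 alternatives, and that of MUTZ-5 in 19 of 20. With MRP genes called in MHH-CALL4 (40), leaving out 1 array gave 32 to 43, and the other alternatives 35 to 43. In MUTZ-5 (29) leaving out 1 array gave 17 to 31, the lowest without MUTZ-5 JQ1 replicate 2, and the others 24 to 33. The difference of effects (0 called) gave 1 with a trended and robust prior and 0 to 2 without 1 array. Between lines under DMSO (6 called) cyclic loess gave 12, the filter at the median level 10, the trended and robust prior 11, and leaving out 1 array 4 to 8. The median of the large subunit in MHH-CALL4 (-0.39) was -0.31 with the extended summary and -0.43 to -0.33 without 1 array. That of the small subunit (-0.39) was -0.27 with the extended summary, -0.31 with cyclic loess and -0.45 to -0.31 without 1 array. The cause of these shifts was not tested. Called effects of named members kept direction and call in 714 alternatives and lost the call in 53. In the 19 alternatives that fitted all members, 28 of the 40 MHH-CALL4 falls and 15 of the 28 MUTZ-5 falls were called every time.

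Replicate numbers did not pair the samples: same-numbered DMSO and JQ1 arrays correlated at 0.30, 0.07 and 0.23 for MHH-CALL4, and for MUTZ-5 at -0.17, -0.21 and -0.44. With the replicate block 35 members were called in MHH-CALL4, 26 in MUTZ-5 and 0 for the difference. The block and the fit on 1 line were not run for the contrast between lines under DMSO, and the fit on 1 line not for the difference. The 9 members below the median level drop out of the filtered fit. Signal over background is unknown.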
